A study of Saccharomyces cerevisiae with 104 samples.

Results

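The genes described here encode the ergosterol pathway of the budding yeast Saccharomyces cerevisiae and its regulators, 30 of the 7108 genes listed in each abundance table. They were taken by gene name and cover the mevalonate steps, the steps from squalene to lanosterol and from lanosterol to ergosterol, 2 electron donors, 2 transcription factors and 2 sterol acyltransferases. All 30 names were found in all 4 RNA-seq libraries, and all 30 genes had a median TPM (a length-normalised share of all transcripts) of at least 1. Beside these libraries the series lists 100 ChIP-exo samples, not analysed here. Its design concerns stalled RNA polymerase II in cells given a short pulse of H2O2. One protocol, growth at 25 °C and 0.3 mM H2O2 for 6 min before formaldehyde crosslinking, is attached to every sample, and no label gives a strain or sets a treated RNA-seq library apart from an untreated one. The extraction text, too, is that of an immunoprecipitation. The libraries are therefore described one by one as libraries 1 to 4 (the numbers are names only), with no groups, no replicates and no test. Values given as a series follow the order of libraries 1, 2, 3 and 4.

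Ergosterol is the main sterol of fungal membranes and does there what cholesterol does in animals. Acetyl-CoA is built up to farnesyl diphosphate through mevalonate, with HMG-CoA reductase as the regulated step. Squalene is then made, oxidised and cyclised to lanosterol, and a series of demethylations, reductions and desaturations yields ergosterol. Several of these reactions need molecular oxygen, heme or iron, and the pathway is known to respond to oxygen and sterol supply through the zinc cluster factors Upc2 and Ecm22. Surplus sterol is esterified and stored in lipid droplets.

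The share of protein-coding messages varied widely, and TPM values shift between libraries with it. Of all TPM, 46.9, 12.2, 21.2 and 5.77% belonged to nuclear protein-coding genes, and the median such gene had 42.7, 7.97, 18.7 and 3.83 TPM. Each member is therefore also given as a multiple of the median gene of the same library, taken over the 5667 nuclear protein-coding genes whose median TPM reached 1. The members together held 0.537, 0.524, 0.50 and 0.462% of the TPM of nuclear protein-coding genes. Their summed depth, coverage times gene length, was 1.18, 0.422, 0.705 and 0.225 megabases. The tables hold no read counts, so no counting intervals are given. Library 4 was the shallowest, and its thinnest member, CYB5, rested on 360 bases there.

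As a list, the sterol genes stood above the median gene. The list median was 1.54, 2.35, 1.68 and 2.42 times the median gene, at percentile 67.7, 79.5, 71.3 and 80.1 of protein-coding genes. At least 2-fold above the median gene were 10, 16, 11 and 16 of the 30 members, where 22.6, 24.3, 22.7 and 24.3% of all tested genes were. The same 10 members passed that level in all 4 libraries, 33.3% of the list against 15.1% of all genes. They were ERG10, ERG13, IDI1, ERG20, ERG9, ERG1, ERG11, ERG6, ERG3 and ARE2. Above the median gene in all 4 libraries were 19 of 30, against 36.4% of all genes. At the other end, ERG28, ERG29, CYB5, UPC2 and ECM22 lay below the median gene in all 4 libraries, 5 of 30 members against 35.4% of all genes. Under a filter at a median TPM of 10, which drops these 5 members and raises the reference, 6 members rather than 10 stood 2-fold above it in all libraries.

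**Figure D1:**
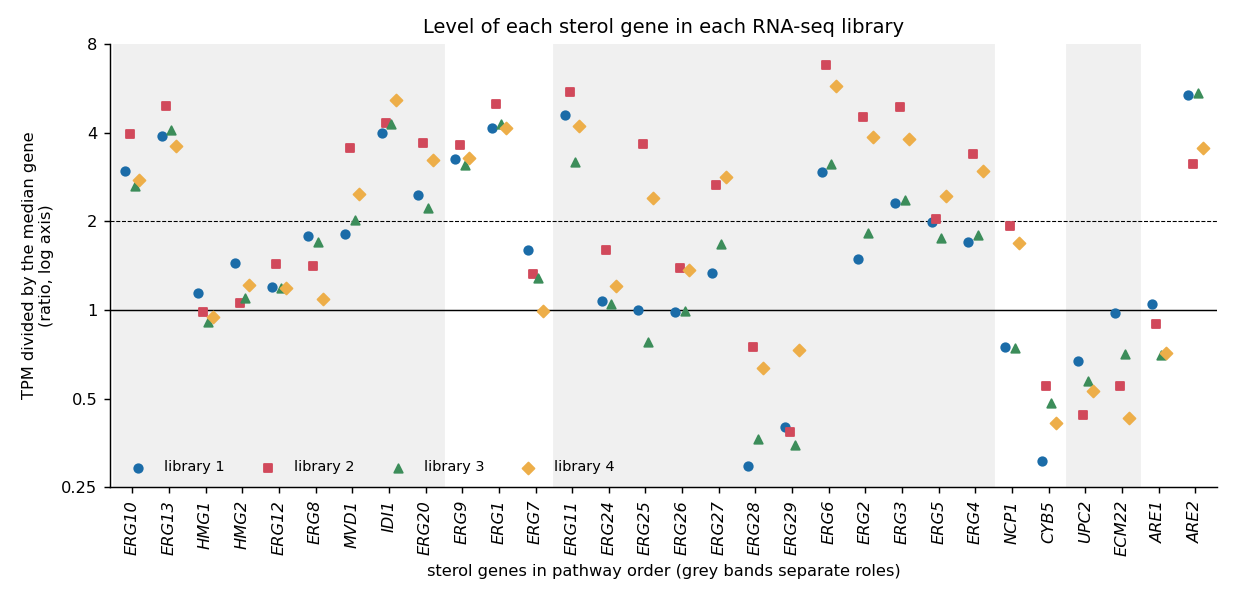
Each of the 30 sterol genes on the horizontal axis, in pathway order, with its TPM divided by the median nuclear protein-coding gene of the same library on a log axis. 1 point is shown per library, the solid line marks the median gene and the dashed line 2-fold above it. ERG25, ERG2 and ERG6 show wide gaps between libraries, while ERG9 and ERG1 hold together at 3.11 to 4.99 times the median gene.

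The mevalonate steps fell into a high and a middle tier. ERG10, acetoacetyl-CoA thiolase (chromosome 16, 498096 to 499292, in sacCer3 coordinates as all positions here), had 127, 31.6, 49.2 and 10.6 TPM, or 2.97, 3.96, 2.63 and 2.77 times the median gene. ERG13, HMG-CoA synthase (chromosome 13, 19060 to 20535), had 166, 39.2, 76.1 and 13.8 TPM, or 3.89, 4.91, 4.07 and 3.6 times the median gene. The next enzyme, HMG-CoA reductase, is encoded by 2 genes, and each of them lay close to the median gene. HMG1 (chromosome 13, 115734 to 118898) had 48.9, 7.87, 17 and 3.61 TPM, or 1.14, 0.99, 0.91 and 0.94 times the median gene. HMG2 (chromosome 12, 1032627 to 1035764) had 61.8, 8.39, 20.6 and 4.66 TPM, or 1.45, 1.05, 1.1 and 1.22 times the median gene. Per length, each reductase message was less abundant than that of the synthase before it in every library.

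Mevalonate kinase and phosphomevalonate kinase also belonged to the middle tier. ERG12, the former, had 51.2, 11.5, 22.3 and 4.56 TPM, and ERG8, the latter, had 76.3, 11.2, 31.8 and 4.18 TPM. As multiples of the median gene these were 1.2, 1.44, 1.19 and 1.19 for ERG12 and 1.79, 1.41, 1.7 and 1.09 for ERG8, so ERG8 was lowest in library 4. From the decarboxylase onward levels were higher. MVD1, mevalonate diphosphate decarboxylase, had 77.7, 28.4, 37.9 and 9.5 TPM, or 1.82, 3.56, 2.02 and 2.48 times the median gene. IDI1, the isopentenyl diphosphate isomerase (chromosome 16, 327864 to 328730), had 171, 34.4, 80.1 and 19.8 TPM, or 3.99, 4.31, 4.28 and 5.18 times the median gene, the highest value of these 9 genes in libraries 1, 3 and 4. ERG20, farnesyl diphosphate synthase, which makes the precursor shared with ubiquinone, dolichol and heme A, had 105, 29.5, 41.4 and 12.4 TPM, or 2.45, 3.7, 2.21 and 3.24 times the median gene. MVD1 and ERG20 each had their highest relative level in library 2.

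By median range, the squalene steps varied least. ERG9, squalene synthase, which commits farnesyl diphosphate to sterols (chromosome 8, 484845 to 486179), had 139, 28.9, 58.3 and 12.5 TPM, or 3.25, 3.63, 3.11 and 3.27 times the median gene. Its range of 0.21 log2 units was the smallest of the 30 members. ERG1, squalene epoxidase and the first oxygen-using enzyme (chromosome 7, 846933 to 848423), had 177, 39.8, 80.3 and 15.9 TPM, or 4.15, 4.99, 4.29 and 4.16 times the median gene. ERG7, the lanosterol synthase that closes the rings, was lower, with 68.5, 10.5, 24.1 and 3.78 TPM, or 1.6, 1.32, 1.29 and 0.99 times the median gene. An uncharacterised reading frame, YHR071C-A, overlaps ERG7 by 133 bp on the opposite strand, and the strandedness of the libraries is not given in the sources used here.

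The enzymes from lanosterol to ergosterol held the largest differences between libraries. ERG11, the cytochrome P450 lanosterol 14-alpha-demethylase and target of azole antifungals (chromosome 8, 120091 to 121683), had 197, 44, 59.4 and 16.2 TPM, or 4.6, 5.52, 3.17 and 4.22 times the median gene. ERG24, the C-14 reductase, had 45.8, 12.7, 19.6 and 4.63 TPM, or 1.07, 1.6, 1.05 and 1.21 times the median gene. ERG11 was thus among the most abundant members and ERG24, the step after it, near the median gene. The C-4 demethylation complex follows, and its oxidase ERG25 (chromosome 7, 610564 to 611493) had 42.8, 29.2, 14.6 and 9.17 TPM. This is 1.00, 3.67, 0.78 and 2.4 times the median gene, at percentile 50.1, 88.1, 39.3 and 79.972. ERG25 thus lay at the median gene in library 1 and below it in library 3, and stood well above it in libraries 2 and 4.

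The partners of Erg25 in that complex, ERG26, ERG27 and ERG28, had ranges of 0.45, 1.03 and 1.11 log2 units, against 2.10 for ERG25. Like ERG25, each was higher in libraries 2 and 4 than in libraries 1 and 3. ERG26, the C-3 decarboxylase, had 42, 11, 18.5 and 5.23 TPM, or 0.98, 1.38, 0.99 and 1.37 times the median gene. ERG27, the 3-keto reductase, had 57.1, 21.1, 31.2 and 10.8 TPM, or 1.34, 2.65, 1.67 and 2.83 times the median gene. ERG28, the membrane scaffold that tethers these enzymes, had 12.6, 5.99, 6.85 and 2.42 TPM, or 0.3, 0.75, 0.37 and 0.63 times the median gene. Within a library, where the protein-coding share of TPM cancels, the TPM ratio of ERG25 to ERG26 was 1.02, 2.65, 0.785 and 1.75, and that of ERG25 to ERG27 was 0.750, 1.38, 0.466 and 0.846. Both ratios, picked after the values were seen, were lowest in library 3 and highest in library 2. ERG29, whose product acts on the same methyl oxidation step, was low at 17.1, 3.08, 6.5 and 2.81 TPM, or 0.4, 0.39, 0.35 and 0.73 times the median gene, and highest in library 4. A reading frame of the opposite strand, YLR101C, overlaps ERG27 by 288 bp and had 24.5, 4.11, 11.2 and 1.62 TPM.

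Most of the last steps shared an order of libraries. ERG6, the sterol C-24 methyltransferase that sets ergosterol apart from cholesterol (chromosome 13, 251839 to 252990), had 126, 54.1, 58.7 and 22 TPM, or 2.95, 6.79, 3.14 and 5.75 times the median gene. ERG2, the C-8 isomerase (chromosome 13, 667537 to 668205), had 63.5, 36, 34.1 and 14.8 TPM, or 1.48, 4.51, 1.82 and 3.86 times the median gene. ERG3, the C-5 desaturase (chromosome 12, 253861 to 254958), had 98.7, 39.1, 44.3 and 14.5 TPM, or 2.31, 4.9, 2.37 and 3.8 times the median gene. All of these were highest in library 2, second in library 4 and lowest in library 1. MVD1 and ERG28 had the same order. Over all 5667 genes, levels in libraries 1 and 3 (Spearman's rho 0.96) and in libraries 2 and 4 (0.92) were most alike. The other pairs had 0.78 to 0.83. ERG5, the second cytochrome P450 of the pathway and the C-22 desaturase, had 84.7, 16.3, 32.7 and 9.36 TPM, or 1.98, 2.04, 1.75 and 2.44 times the median gene. ERG4, the final C-24(28) reductase, had 72.4, 26.9, 33.6 and 11.3 TPM, or 1.7, 3.38, 1.8 and 2.96 times the median gene. ERG4 followed the order of ERG6, ERG2 and ERG3, whereas ERG5, with a range of 0.46 log2 units, was highest in library 4 and lowest in library 3.

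Of the electron donors, NCP1, the NADPH reductase that serves the P450s and squalene epoxidase (chromosome 8, 190543 to 192618), had 32.1, 15.4, 13.9 and 6.44 TPM, or 0.75, 1.93, 0.74 and 1.68 times the median gene. It lay below the median gene in libraries 1 and 3 and above it in libraries 2 and 4. CYB5, cytochrome b5, had 13.1, 4.38, 9.04 and 1.58 TPM, or 0.31, 0.55, 0.48 and 0.41 times the median gene. CYB5 is the shortest member at 363 bp, and its values rest on 1510, 786, 1522 and 360 bases.

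The transcription factors were low and stood highest in library 1, although against genes of like length UPC2 was highest in library 4. UPC2 (chromosome 4, 889751 to 892492) had 28.7, 3.51, 10.8 and 2.04 TPM, or 0.67, 0.44, 0.58 and 0.53 times the median gene. ECM22 (chromosome 12, 600019 to 602463) had 41.8, 4.39, 13.3 and 1.64 TPM, or 0.98, 0.55, 0.71 and 0.43 times the median gene. The acyltransferases differed from each other in level. ARE1 (chromosome 3, 211929 to 213761), with 44.8, 7.16, 13.1 and 2.74 TPM, lay near or below the median gene at 1.05, 0.9, 0.7 and 0.72 times. ARE2, the main sterol acyltransferase of aerobic cells (chromosome 14, 665339 to 667267), had 229.5, 25, 101.96 and 13.5 TPM, or 5.37, 3.14, 5.45 and 3.54 times the median gene, and was the most abundant member in libraries 1 and 3. Reading frames YCR049C and YCR050C lie opposite ARE1 over 389 and 298 bp, so part of its signal cannot be assigned to a strand.

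Differences between libraries were then taken as log2 of the relative level plus 0.1, with at least 2-fold (1 log2 unit) as the mark for a call. This mark is a size and not a test. For each pair the second library is given minus the first. In library 2 against library 1, 6 of 30 members were at least 2-fold higher, where 15.7% of all genes were, and 0 were 2-fold lower, against 6.95% of all genes. In library 4 against library 1, 4 members were 2-fold higher, against 14.8% of genes, and 1 was lower, against 8.40%. In library 2 against library 3, 5 were 2-fold higher, against 13.5%, and in library 4 against library 3, 3 were, against 11.8%. In these last 2 pairs 0 members were 2-fold higher in library 3, against 5.24 and 5.51% of genes. Between libraries 1 and 3 and between libraries 2 and 4 no member differed 2-fold. There, 1.55 and 0.247% of genes were 2-fold higher in library 3 and in library 1, and 1.89 and 3.23% in library 4 and in library 2. These shares of members are near those of all genes and are not a result about the sterol genes. Over the 4 libraries, 8 members (26.7%) had a range of at least 2-fold, against 35.5% of all genes, and the median range was 0.67 log2 units against 0.79.

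The list median differed from that of all genes by a moderate amount in each pair but libraries 1 and 3, and in each pair with library 2 most members were higher in library 2. The list median was 0.30 for library 2 minus 1, with 21 of 30 members higher in library 2, against 0.02 and 2893 of 5667 for all genes, and 0.47 with 24 members against genes of like length. It was 0.23 for library 4 minus 1 with 18 members higher in library 4, against 0.02 and 2885 of 5667 for all genes, and against genes of like length 23 members were higher. It was 0.23 for library 4 minus 3 with 21 members higher in library 4, against 0.02 and 2901 of 5667. With log2(TPM + 1) in place of the relative level, these last 2 medians were 0.13 and 0.13. For library 3 minus 2 it was -0.29, with 5 members higher in library 3, against -0.01 and 2812 of 5667. Library 3 minus 1 gave -0.02 with 13 members higher in library 3, against -0.02 and 2682 of 5667. Library 4 minus 2 gave -0.23 with 7 members higher in library 4, against 0.00 and 2835 of 5667. These comparisons share libraries and are not independent of one another. Libraries 2 and 4 also had the lowest shares of TPM in protein-coding genes, and the part of this in the differences was not tested.

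By role, the median displacement was largest in the late steps and the electron donors, the latter only 2 genes that differed from each other. Of the 12 genes from lanosterol to ergosterol, 11 were higher in library 2 than in library 1 (all but ERG29). All 12 were higher in library 4 than in library 3. The medians were 0.95 and 0.68. Of all 5667 genes, 2893 and 2901 were higher in these pairs, with medians of 0.02 and 0.02. Of the 9 mevalonate genes 6 were higher in each of these pairs, with medians of 0.24 and 0.07. The 3 squalene genes had medians of 0.15 and -0.04, the second of which was 0.09 against genes of like length. The 2 electron donors had medians of 0.97 and 0.45, the latter from 1 gene higher and 1 lower. Against genes of like length these were 0.79 and 0.32, with NCP1 at 1.52 and 1.22 and CYB5 at 0.05 and -0.57. Both transcription factors were lower in library 2 than in library 1 and in library 4 than in library 3, with medians of -0.62 and -0.35, but against genes of like length UPC2 was higher in library 4 than in library 3, by 0.11. The sterol acyltransferases had medians of -0.48 and -0.29, or -0.21 and -0.16 against genes of like length, where ARE1 was higher and ARE2 lower in both pairs. The difference between roles was not tested.

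The pairs 2 against 1 and 4 against 3 share no library, and ERG25, ERG2 and NCP1 were at least 2-fold higher in both, 3 of 30 members where 8.96% of all genes were. ERG25 had differences of 1.77, -0.33, 1.18, -2.10, -0.59 and 1.51 log2 units for libraries 2 minus 1, 3 minus 1, 4 minus 1, 3 minus 2, 4 minus 2 and 4 minus 3. Of 5667 genes, 294 had a larger difference for library 2 minus 1 and 271 for library 4 minus 3. In the same order of pairs ERG2 had 1.54, 0.28, 1.32, -1.26, -0.22 and 1.04, and NCP1 had 1.26, -0.02, 1.07, -1.27, -0.19 and 1.08. ERG25 thus had the largest range of the 30 members, 2.10 log2 units, followed by ERG2 with 1.54 and NCP1 with 1.27. No member was 2-fold lower in both, against 2.88% of all genes. The same 3 members were at least 2-fold higher in both library 4 over 1 and library 2 over 3, against 7.99% of genes, and 0 were lower in both, against 2.49%. This pairing is drawn from the same 4 libraries as the first, so it is not a second, independent result. In each pairing, 3 of 30 members is near the share of all genes. In library 3 over 1 and library 4 over 2, 0 members were 2-fold higher in both, against 0.124%, and 0 lower in both, against 0.141%. ERG6 had 1.18, 0.09, 0.94, -1.09, -0.24 and 0.85, ERG3 had 1.05, 0.03, 0.69, -1.02, -0.36 and 0.66 and ERG28 had 1.11, 0.24, 0.89, -0.87, -0.22 and 0.65. These were at least 2-fold higher in library 2 than in library 1 but not in library 4 than in library 3. ERG28 rested on 1791, 1322, 1420 and 680 bases.

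**Figure D2:**
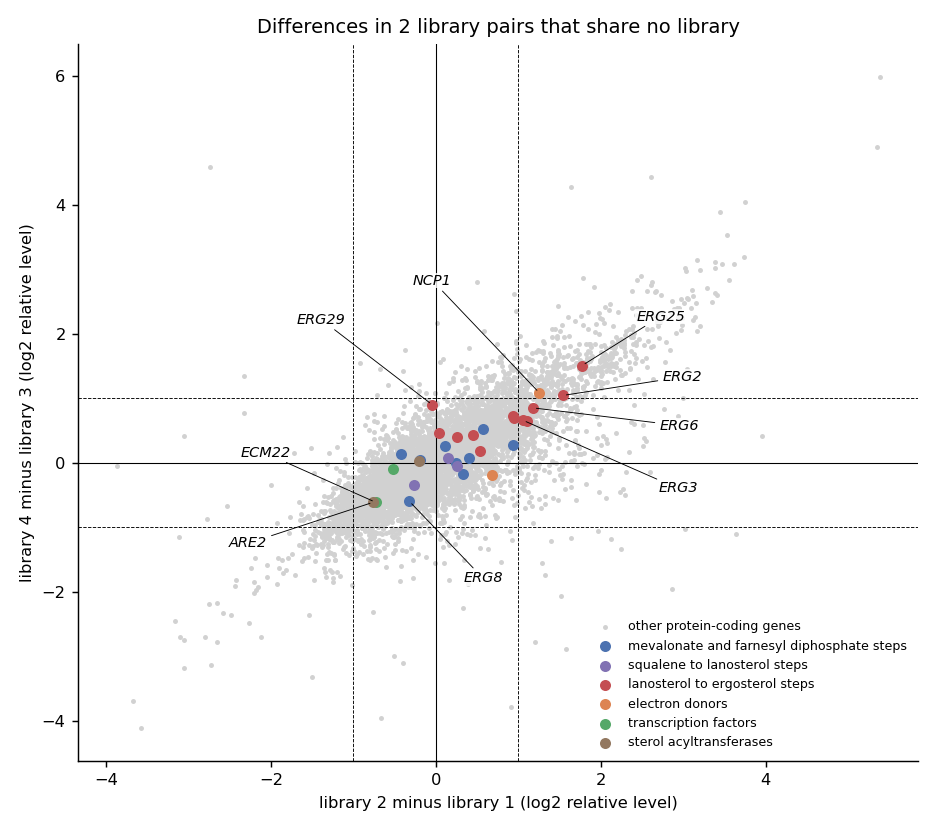
Difference in log2 relative level for library 2 minus 1 on the horizontal axis and library 4 minus 3 on the vertical axis, with 1 point per gene, grey for all tested protein-coding genes and coloured by role for the 30 sterol genes. Dashed lines mark 2-fold, and ERG25, ERG2 and NCP1 lie beyond it on both axes while ECM22 and ARE2 lie below 0 on both.

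At the low end of level, ERG29 had differences of -0.04, -0.16, 0.74, -0.12, 0.78 and 0.90 in the same order of pairs, and CYB5 had 0.68, 0.52, 0.33, -0.16, -0.34 and -0.19. ERG29 stood apart in library 4, and CYB5 had its lowest level in library 1, or in library 4 against genes of like length. The HMG-CoA reductase genes had -0.19, -0.30, -0.25, -0.11, -0.06 and 0.05 for HMG1 and -0.42, -0.37, -0.23, 0.06, 0.19 and 0.14 for HMG2, but against genes of like length HMG1 stood at 0.25 and 0.26 and HMG2 at 0.03 and 0.29 for library 2 minus 1 and 4 minus 1. UPC2 had -0.51, -0.19, -0.29, 0.32, 0.23 and -0.10, and ECM22 had -0.73, -0.42, -1.03, 0.31, -0.30 and -0.61, so ECM22 was 2-fold higher in library 1 than in library 4. ARE1 had -0.20, -0.52, -0.50, -0.32, -0.29 and 0.03 and ARE2 had -0.76, 0.02, -0.59, 0.78, 0.17 and -0.61. The 5 members whose enzymes use molecular oxygen (ERG1, ERG11, ERG25, ERG3 and ERG5), grouped after the values were seen, had a median of 0.26 for library 2 minus 1 and 0.46 for library 4 minus 3. All 5 were higher in library 2 than in libraries 1 and 3. For library 2 minus 1 the sizes ran from 0.04 for ERG5 to 1.77 for ERG25. Of all 30 members, 21 were higher in library 2 than in library 1, and 5 were higher in library 3 than in library 2. The median of all 30 was 0.30 for library 2 minus 1, above that of the 5 members. For library 4 minus 3 it was 0.23, below that of the 5 members. Whether the 5 members differ from the others was not tested.

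Gene length moved with these differences. Across all 5667 genes, the shortest of 5 equal length groups (78 to 651 bp) had a median of 0.63 for library 2 minus 1 and the longest (2142 to 14733 bp) -0.49. For library 4 minus 3 these were 0.43 and -0.30. The members spanned 363 to 3165 bp. The 13 members shorter than the median gene of 1233 bp had a median of 0.93 for library 2 minus 1 and the 17 others 0.04. Across the 30 members, which share libraries, Spearman's rho of length with this difference was -0.64, and across all genes it was -0.47. With each gene set against the median gene of its own length group, 6 members were 2-fold higher in library 2 than in library 1, against 12.5% of all genes, and 0 lower, against 4.62%. In library 4 over library 1 these counts were 4 and 0, against 11.1 and 5.35%, and in library 4 over library 3 they were 2 and 0, against 10.2 and 4.87%. Of the late genes 11 and 12 were again higher in the pairs 2 against 1 and 4 against 3, with medians of 0.80 and 0.76. With this reference, no count of all genes higher in these pairs is given.

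The length reference moved single members in both directions. ERG25 (930 bp) stood at 1.54 for library 2 minus 1 and 1.41 for library 4 minus 3, but at 0.95 for library 4 minus 1, under 2-fold, while ERG6 came to 1.03 there. NCP1 (2076 bp) moved up to 1.52 and 1.22. ERG2 (669 bp) stood at 1.31 and 0.95, so it no longer passed 2-fold in the second pair. ERG28 (447 bp) dropped from 1.11 to 0.48 for library 2 minus 1 and CYB5 from 0.68 to 0.05. ECM22 (2445 bp) went from -1.03 to -0.54 for library 4 minus 1 and was no longer 2-fold lower. UPC2 (2742 bp) turned from -0.29 to 0.19 for library 4 minus 1, HMG1 (3165 bp) from -0.25 to 0.26, HMG2 (3138 bp) from -0.23 to 0.29 and CYB5 from 0.33 to -0.35. In that pair 7 of 30 members changed sign, the others being ERG13, ERG12 and ERG11. For library 2 minus 1 there were 5, HMG1, HMG2, IDI1, ERG7 and ARE1, and for library 4 minus 3 there were 3, ERG12, ERG1 and UPC2. The direction of these genes in these pairs depends on the reference, and they are included in the counts of members given above.

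**Figure D3:**
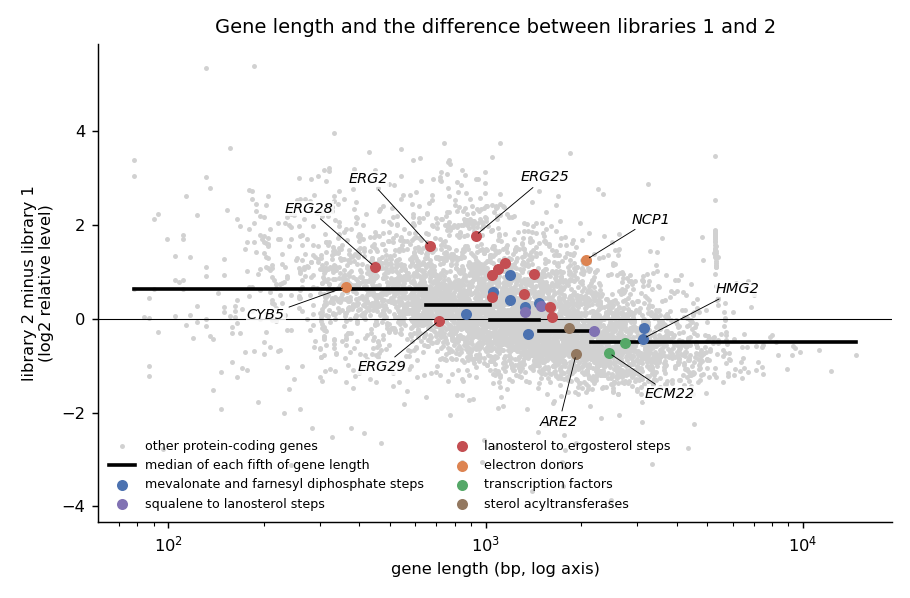
Gene length in bp on a log axis against the log2 difference of library 2 minus 1, with 1 point per gene, grey for all tested protein-coding genes and coloured by role for the sterol genes. Black bars give the median of each of the 5 length groups, from 0.63 to -0.49, and NCP1, ERG25 and ERG2 lie above the bar of their own length, and ARE2 and ERG29 below it.

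Genes with paired roles were compared within each library, where neither the protein-coding share of TPM nor the median gene enters. HMG2 to HMG1 was 1.26, 1.07, 1.21 and 1.29, so HMG2 was slightly more abundant in each library, and these genes are of like length. Hmg1 is known as the stable and Hmg2 as the regulated, degraded enzyme, which messenger levels do not show. ARE2 to ARE1 was 5.12, 3.49, 7.78 and 4.94, so ARE2 exceeded ARE1 in each library while the ratio itself varied. ECM22 to UPC2 was 1.46, 1.25, 1.23 and 0.806, with UPC2 the more abundant factor in library 4 only. There ECM22 rested on 2522 and UPC2 on 3508 bases.

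**Figure D4:**
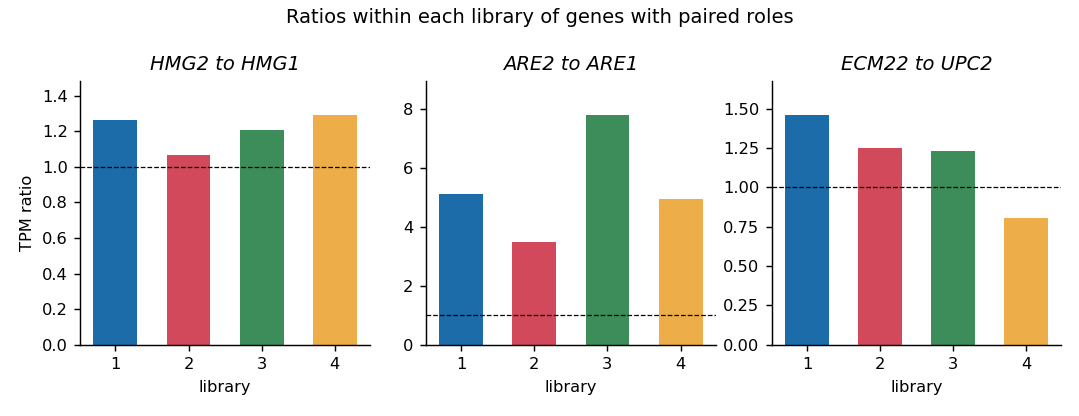
TPM ratios within each of the 4 libraries for HMG2 to HMG1, ARE2 to ARE1 and ECM22 to UPC2, with 1 bar per library, axes that start at 0 and a dashed line at a ratio of 1. ARE2 to ARE1 lies between 3.49 and 7.78, and ECM22 to UPC2 is below 1 in library 4.

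Few of the further sterol and isoprenoid genes stood high. Of 48 such genes 46 had a median TPM of at least 1, and 2 of these stood at least 2-fold above the median gene in all 4 libraries, where 15.1% of all genes did. These were KES1, an oxysterol-binding protein of the Golgi, at 3.71, 3.44, 2.75 and 2.3 times the median gene, and NSG1, the yeast INSIG protein that stabilises Hmg2, at 2.16, 2.88, 3.1 and 2.42 times. In library 2 against library 1, 4 of the 46 were 2-fold higher and 3 lower, against 15.7 and 6.95% of all genes, with a median of -0.06. In library 4 against library 3, 2 were higher and 1 lower, against 11.8 and 5.51% of all genes, with a median of -0.16.

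Among the 8 oxygen, heme and sterol regulators, 2 (ROX1 and MOT3) were 2-fold higher in library 2 than in library 1 and 2 (ROX1 and CYC8) in library 4 than in library 3, where 15.7 and 11.8% of all genes were. ROX1, the heme-induced repressor of hypoxic genes, had 59.8, 64.1, 35.3 and 39.998 TPM. It was 1.4, 8.04, 1.89 and 10.45 times the median gene, so its TPM varied less between libraries than its relative level did. Its difference was 2.44 for library 2 minus 1, exceeded by 93 of 5667 genes, and 2.41 for library 4 minus 3, exceeded by 47. MOT3, a repressor that acts with it on hypoxic and sterol genes, had 9.45, 7.08, 6.22 and 2.01 TPM, or 0.22, 0.89, 0.33 and 0.53 times the median gene.

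In the other lists, of the 17 tested genes for sterol uptake and transport, 2 were 2-fold higher (HES1 and NPC2) and 2 lower (SIP3 and LAM6) in library 2 than in library 1, against 15.7 and 6.95% of all genes, so these counts are near the background. HES1, an oxysterol-binding protein gene, had 1.38, 2.42, 0.638 and 0.186 TPM, and its library 4 value rests on 152 bases. SIP3, of a membrane sterol transfer family, had 41.5, 2.46, 12.9 and 1.28 TPM. Of the 8 isoprenoid branch genes tested, COQ2, which prenylates the ubiquinone ring, had 45.3, 2.13, 23.7 and 1.78 TPM and was at least 2-fold lower in library 2 than in library 1 and in library 4 than in library 3. No other of the 8 was, and 2.88% of all genes were 2-fold lower in both pairs. BTS1, which makes geranylgeranyl diphosphate, had 33.1, 2.73, 12.8 and 2.64 TPM. None of the 5 genes for sterol ester hydrolysis and acetylation and none of the 8 for HMG-CoA reductase regulation and degradation passed the 2-fold mark between libraries 1 and 2 or 3 and 4. That mark includes the pseudocount. NSG2 had 0.436 and 0.215 times the median gene in libraries 3 and 4, a difference of -0.76 with the pseudocount. Of all genes, 15.7 and 6.95% were 2-fold higher and lower in library 2 than in library 1. In library 4 against library 3 these shares were 11.8 and 5.51%. YEH1, a steryl ester hydrolase, had 15.8, 5.87, 6.52 and 1.02 TPM and ATF2, a sterol acetyltransferase, 14.4, 2.6, 5.19 and 0.685 TPM. NSG2, the second INSIG protein gene, had 26.1, 2.72, 8.15 and 0.825 TPM and DER1, of the ER degradation machinery, 24.1, 4.81, 9.09 and 1.42 TPM. In other pairs, YEH1 was 2-fold lower in library 4 than in library 2, at -1.19, against 3.23% of all genes. NSG2 was 2-fold lower in library 4 than in library 1, at -1.17, against 8.40%. DAN1 and SRT1 fell under the filter, with 0.267, 0.722, 0.0865 and 0.071 and 0.232, 0.298, 2.22 and 0.0602 TPM.

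**Figure D5:**
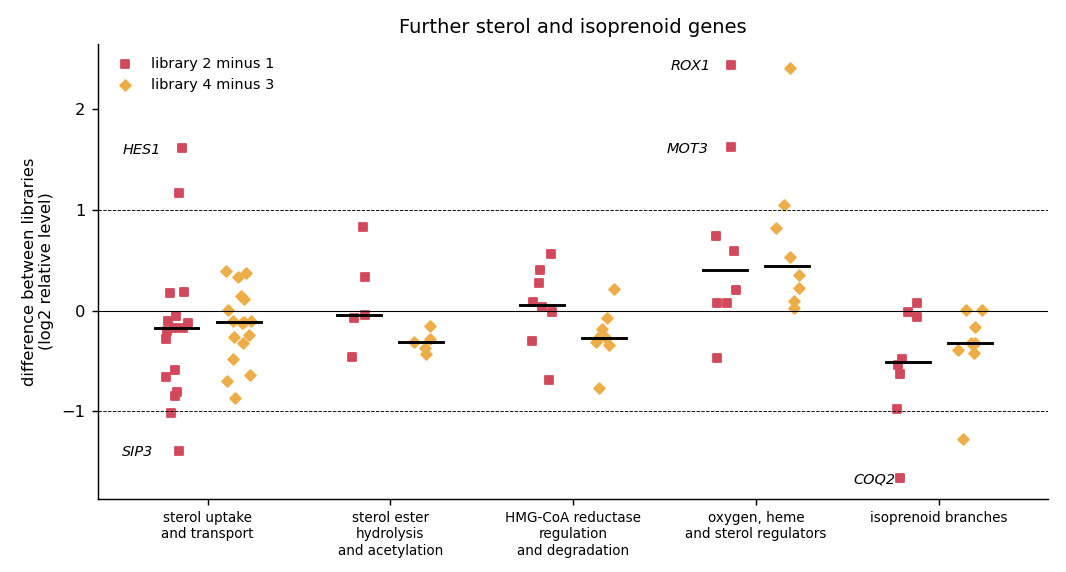
Log2 differences in relative level of the 46 further genes, by list, for library 2 minus 1 (squares) and library 4 minus 3 (diamonds), with 1 point per gene and black bars for list medians. ROX1 stands highest in both pairs at 2.44 and 2.41, and COQ2 lowest in both.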

How the data were processed

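The 4 RNA-seq libraries were deposited as gene abundance tables. Per the file headers, the deposited values are coverage (mean read depth, used here as signal), FPKM and TPM, and the TPM of each library sums to 1000000 with ribosomal RNA included. FPKM was used only to check that it is a constant multiple of coverage. TPM is one too within each library, so coverage in place of TPM, listed below, could not change a relative level. The reference without reading frames over ribosomal RNA leaves out at most 6 genes and could hardly move the median gene. Per the submitters' processing notes BWA, Picard and SAMtools and the build sacCer3 were used, with no role given. The abundance estimator and strandedness are not given in the sources used here. Of the genes, 5989 were matched as nuclear protein-coding in RefSeq annotation, of which 5667 had a median TPM of 1 or more and entered the analysis. TPM was divided by their median in each library, and differences were taken as log2 of that ratio plus a pseudocount of 0.1, which understates the change of low genes. Calls are differences of at least 2-fold. With no labelled groups, no test was run, and each library is 1 sample. The members and lists were chosen with earlier results of these data known. All pair differences are given for the 6 members of largest range, the paralogue pairs, and the 2 members of highest and 2 of lowest median level, and for each further list the 2 genes of largest range are named. KES1, NSG1, NPC2, LAM6 and CYC8 were named after their values were seen. The procedure was tested on simulated data. Alternatives were other pseudocounts (0.01 and 0.5), log2(TPM + 1), TPM of at least 10, no filter, coverage in place of TPM, size factors, the median gene of the same length group (of 5), a reference without reading frames over ribosomal RNA (chosen after seeing the data) and leaving out each library. Scripts ran in Python 3.11.15 with pandas 2.3.3 and numpy 2.4.6, rank correlations in scipy 1.17.1, and figures in matplotlib 3.10.9.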

Additional observations from a re-analysis of the deposited data

How the results depend on the processing

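Under the alternatives run, no list median reversed sign, which a count or a range cannot do. Of the counts and list medians, 226 stayed within the limits set for a change while 19 moved. Those limits were 1 SD over libraries for levels and 1.5 times for counts and ranges. List median differences were not held to the factor of 1.5, and moves from 0.30 to 0.47 and from 0.23 to 0.13 counted as within their limit. Coverage in place of TPM could move no relative level. The reference without reading frames over ribosomal RNA could hardly move one, and its values are among the 226. With a pseudocount of 0.5, members 2-fold higher in library 2 than in library 1 fell from 6 to 3, in library 4 than in library 1 from 4 to 1, in library 2 than in library 3 from 5 to 3 and in library 4 than in library 3 from 3 to 1. Members with a range of at least 2-fold fell from 8 to 3 there. The 1 member 2-fold higher in library 1 than in library 4, ECM22, gave a count of 0 with that pseudocount, with log2(TPM + 1) and with the reference of the same length group. With TPM of at least 10 the list median level was 0.18, 0.20 and 0.76 log2 units in libraries 1, 3 and 4, against 0.58, 0.70 and 1.20. Members 2-fold above the median gene were then 6, 7 and 10 in these libraries and 6 in all 4, and 5 had a range of at least 2-fold. That filter changed both the reference and the list, leaving 25 members without ERG28, ERG29, CYB5, UPC2 and ECM22, so the count of 0 for library 1 over library 4 there comes from the removal of ECM22. List medians moved from 0.30 to 0.47 for library 2 minus 1 and from -0.29 to -0.44 for library 3 minus 2 with the length reference, and from 0.23 to 0.13 for libraries 4 minus 1 and 4 minus 3 with log2(TPM + 1). Leaving out 1 library in turn gave 5 to 8 members with a range of at least 2-fold, with 5 when library 1 or library 2 was left out. No paired analysis was possible because the labels give the RNA-seq libraries no groups and no shared replicate numbers. Depth limits the low members most, CYB5, ERG28 and ERG29, and no interval could be given without read counts.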
